A study of Mus musculus with 16 samples.

Results

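The 10 genes described here encode VEGF and angiopoietin ligands and receptors: the ligands Vegfa, Vegfb, Vegfc, Angpt1 and Angpt2 and the receptors Flt1, Kdr, Flt4, Tek and Tie1. They were taken by gene symbol from a table of 23235 rows, and all 10 were found. Expression was measured by RNA sequencing in mouse embryonic skin at embryonic day 14.5, separated by fluorescence-activated cell sorting into 8 fractions with 2 libraries each. The fractions carry the labels Neg, DCSch, Pc, DC, Epi, Fb, Mc and Sch. The labels do not spell these out, and from general knowledge of such skin sorts they are read here as negative cells (Neg), dermal condensate with Schwann cells (DCSch), placode (Pc), dermal condensate (DC), epidermis (Epi), fibroblasts (Fb), melanocytes (Mc) and Schwann cells (Sch). No strain, genotype or reporter allele is given in the sources used here, nor are the markers used for sorting, so a gene that served for sorting would be no finding of its own. No label says that replicates 1 and 2 came from separate litters, so each p-value reflects the spread of these samples alone, which may be technical.

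VEGF-A, the main inducer of blood vessel growth, binds the receptors FLT1 (VEGFR1) and KDR (VEGFR2). KDR carries most of the signal for endothelial division and migration, whereas FLT1 binds VEGF-A more tightly, signals weakly and also exists as a soluble form that traps the ligand. VEGF-B binds FLT1, and VEGF-C and VEGF-D act on FLT4 (VEGFR3), the receptor of growing lymphatic vessels. Angiopoietin 1 activates the endothelial receptor TEK (TIE2), angiopoietin 2 can oppose it, and TIE1 is a partner of TEK without a ligand of its own in the classical scheme.

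Values are FPKM, a count of sequenced fragments divided by the length of the transcript and the size of the library, so levels can be set beside each other between genes. The sum of FPKM over all rows lay between 439201 and 606437 per library, and no read counts were given, so no counting interval could be set. The correlation between the 2 libraries of a fraction over genes, on the log2(FPKM + 1) scale, was between 0.939 in Fb and 0.979 in Epi. Differences were tested on that scale with limma over the 14171 genes that reached 1 FPKM in at least 2 libraries, and a gene was called where the adjusted p was under 0.05 and the log2 difference at least 1 in size. All 10 genes passed that filter: Vegfa, Vegfb, Vegfc, Kdr and Angpt2 reached 1 FPKM in all 16 libraries, Flt1 in 7, Tek and Angpt1 in 5, Flt4 in 4 and Tie1 in 2. The 2 libraries that let Tie1 pass were both Neg, so a call for it in Neg follows from the filter.

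The labels were checked against markers. The 6 dermal condensate markers summed to 1179 and 1044 FPKM in DC, against 44.3 and 44.0 FPKM in Fb, and the 6 Schwann markers summed to 1667 and 1884 FPKM in Sch. DC also held some Schwann RNA, with a sum of 37.4 and 89.0 FPKM in DC against 6.15 and 12.2 FPKM in Fb. In Mc the 6 melanocyte markers summed to 6600 and 5058 FPKM and the 6 Schwann markers to 259 and 255 FPKM. The 6 keratinocyte markers summed to 569 and 409 FPKM in Mc, of which Cdh1 made 224 and 236 FPKM. Neg was a mixture: it had the highest sums of blood endothelial genes (862 and 619 FPKM), lymphatic genes (63.4 and 73.7 FPKM) and blood cell genes (32772 and 35897 FPKM) of any fraction. The embryonic globin Hbb-y alone stood at 22204 and 27245 FPKM in Neg. Vessel wall genes summed to 228 and 188 FPKM in Neg and to 156 and 149 FPKM in Fb. Of these sums Des made 82.1 and 39.5 FPKM in Neg and 2.61 and 2.26 FPKM in Fb.

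Vegfa, at chr17:46016993-46032377 of mm10, was highest in DC. It stood at 8.55 and 9.20 FPKM in Neg, 40.2 and 46.8 FPKM in DCSch, 61.4 and 73.0 FPKM in DC, and 27.9 and 24.1 FPKM in Fb. The 8 libraries of Pc, Epi, Mc and Sch lay between 9.22 and 13.5 FPKM, with a median of 11.2 FPKM. The order was therefore DC, DCSch, Fb and then a group of 5 fractions at a similar low level, and no library of DC overlapped one of DCSch, nor one of DCSch a library of Fb. DCSch was 0.61 lower than DC on the log2 scale, which did not pass (SE 0.18, limma adjusted p = 0.0660). With the replicate number as a block the limma adjusted p was 0.00746, and the difference was still under the size limit. DCSch exceeded Fb by 0.72 and Fb exceeded Sch by 0.93, both under the size limit for a call but with limma adjusted p = 0.0222 and 0.00265. Neighbours below Sch in the order did not differ beyond their spread. In bulk libraries such as these, fewer cells of a type and less RNA per cell cannot be told apart.

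Vegfb, at chr19:6982472-6987651, was highest in Mc. It stood at 84.5 and 52.9 FPKM in Mc and at 29.1 and 20.0 FPKM in Neg, and the 14 libraries outside Mc ranged from 6.77 to 32.4 FPKM with a median of 18.1 FPKM. Both Mc libraries thus lay above every other library. Replicate 1 was above replicate 2 in all 8 fractions, by 1.46 times in Neg to 2.62 times in DC. Mc exceeded Neg, next in the order, by 1.44 on the log2 scale without passing (SE 0.53, limma adjusted p = 0.0895), and passed with the replicate number as a block (limma adjusted p = 6.63e-05). No pair of neighbours below Neg differed beyond its spread.

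Vegfc, at chr8:54077532-54186454, the lymphatic growth factor, had 2 high fractions, Mc and Fb. It stood at 24.5 and 27.1 FPKM in Mc and at 18.8 and 23.4 FPKM in Fb. Neg had 4.88 and 7.98 FPKM, and the 10 libraries of the other 5 fractions ranged from 1.27 to 4.86 FPKM. Mc and Fb did not overlap, but their difference of 0.28 was within the spread (SE 0.31, limma adjusted p = 0.582). Fb lay 1.60 above Neg on the log2 scale (SE 0.31, limma adjusted p = 0.00281).

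Figf, the older symbol of Vegfd and the second ligand of FLT4, at chrX:164373548-164402647, was spread differently among the fractions. It stood at 64.3 and 72.8 FPKM in DCSch, 83.7 and 79.6 FPKM in DC, and 73.8 and 90.8 FPKM in Fb. Neg had 9.52 and 14.4 FPKM, and the 8 libraries of Pc, Epi, Mc and Sch had at most 5.14 FPKM. DC and Fb overlapped and differed by -0.0038 on the log2 scale (SE 0.28, limma adjusted p = 1). Vegfc was thus the higher of these FLT4 ligands in Mc, and Figf the higher in Fb. In DC, Figf averaged 81.7 FPKM and Vegfc 3.58 FPKM. Pgf, placenta growth factor, a ligand of FLT1 alone, stood at 6.92 and 7.39 FPKM in Neg and at 4.07 and 3.08 FPKM in Fb, with at most 1.25 FPKM in any other library.

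Other genes handle VEGF-C outside the cell, namely Ccbe1 and Adamts3, which bring about its cleavage to the active form, and Svep1, a matrix protein of the lymphatic pathway. All had their highest level in Fb. Ccbe1 stood at 8.25 and 10.1 FPKM in DCSch, 5.36 and 5.27 FPKM in DC, and 11.2 and 14.5 FPKM in Fb. Adamts3 stood at 0.387 and 0.345 FPKM in DC against 2.45 and 2.90 FPKM in Fb. Svep1 stood at 0.750 and 0.627 FPKM in DC against 32.5 and 29.8 FPKM in Fb. All 3 were called lower in DC than in Fb, by 1.12 for Ccbe1, 1.43 for Adamts3 and 4.25 for Svep1 on the log2 scale (limma adjusted p = 0.0170, 2.84e-05 and 3.90e-07). Adamts3 passed the filter through Fb alone, so its call follows from it.

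Angpt1, at chr15:42424725-42676795, was low everywhere and highest in Fb and Neg. It stood at 2.02 and 2.64 FPKM in Neg, 0.497 and 1.02 FPKM in DCSch, 0.289 and 0.101 FPKM in DC, and 1.31 and 3.46 FPKM in Fb. The 8 libraries of Pc, Epi, Mc and Sch had at most 0.274 FPKM, and it is listed at 0 in Epi replicate 1. Fb and Neg overlapped and did not differ beyond their spread (limma adjusted p = 0.949). The file gives Angpt2 the same locus as Mcph1, chr8:18595173-18803188, because Angpt2 lies inside Mcph1 on the opposite strand, at chr8:18690263-18741562 in the RefSeq annotation of GRCm38.p6. How fragments were divided between the pair is not given, so the Angpt2 values are uncertain. They ranged from 2.02 to 7.89 FPKM over the 16 libraries, and no neighbours in its order of fractions differed beyond their spread. Neg, the fraction with the endothelial genes, had 5.52 and 7.89 FPKM, against 5.87 and 6.83 FPKM in Fb. Mcph1 ranged from 4.55 to 15.1 FPKM, and its correlation with Angpt2 over the 16 libraries, which share depth and amplification, was 0.50 as a description.

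**Figure D1:**
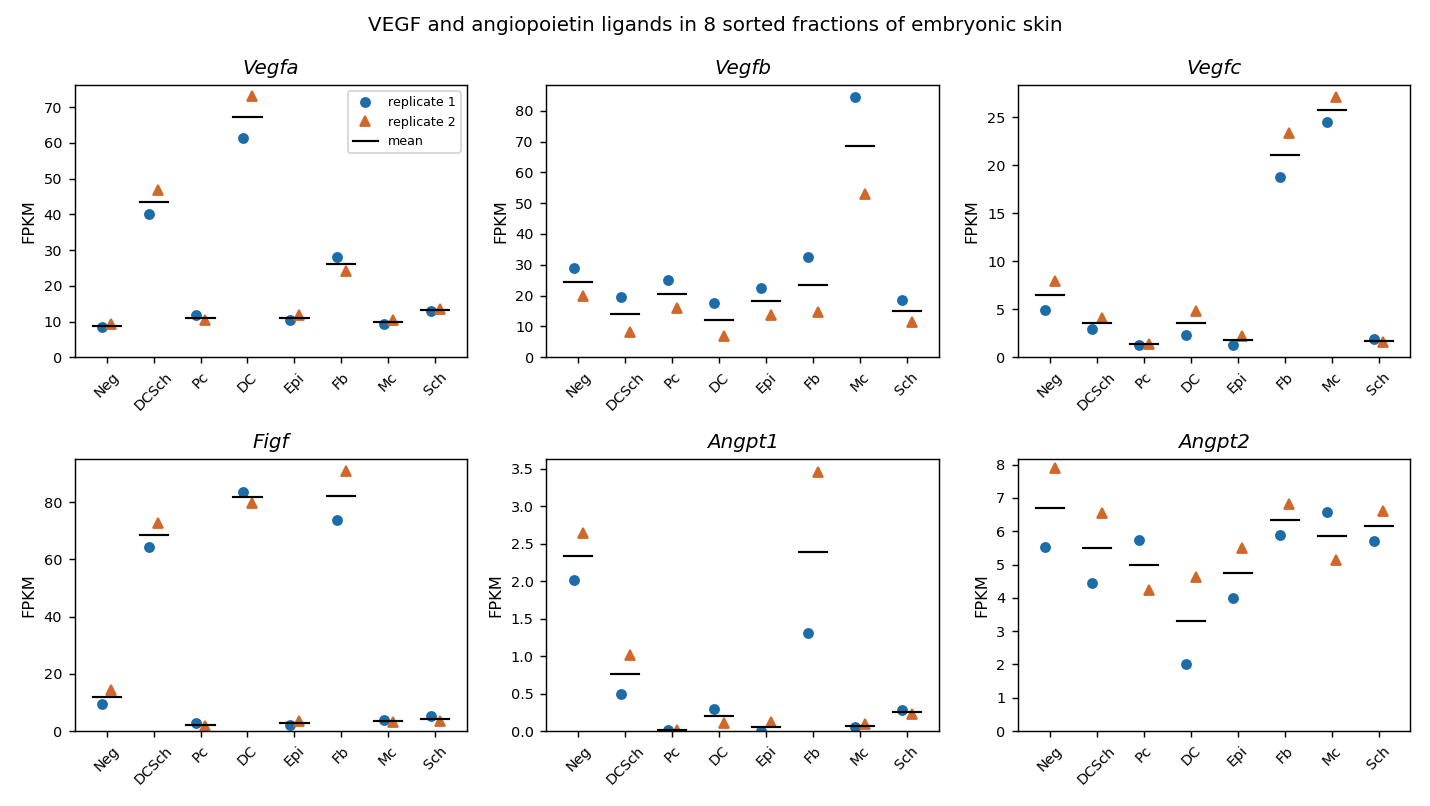
FPKM (linear axis from 0) of Vegfa, Vegfb, Vegfc, Figf, Angpt1 and Angpt2 in each library of the 8 fractions; circles are replicate 1, triangles replicate 2 and lines the mean of both. Vegfa peaks in DC at 61.4 and 73.0 FPKM, Vegfb in Mc, Vegfc in Mc and Fb, Figf in DCSch, DC and Fb, and Angpt1 in Neg and Fb, while Angpt2 stays between 2.02 and 7.89 FPKM.

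The promoters of the receptor genes are shown because 4 of the 5 receptors were highest in Neg while Flt1 was equally high in DC. Each line holds the 250 bases before a gene start listed by RefSeq, 5' to 3' on the gene's strand, on GRCm38.p6, the build named mm10 in the submitters' notes. Of the 10 genes, 8 had an entry; Angpt1 and Angpt2 are named only. Flt1 lies at chr5:147726012-147726261, minus strand. Kdr lies at chr5:75978456-75978705, minus strand. Flt4 lies at chr11:49609429-49609678, plus strand. Tek lies at chr4:94739039-94739288, plus strand, and Tie1 at chr4:118489850-118490099, minus strand. The annotated genes Flt1 and Kdr reach further upstream than these starts, so their windows lie inside the gene. The annotated Tek gene starts at base 94739086 of chr4, so most of the Tek window lies inside it as well. Capitals mark the letters CCGGAA or AGGAAG on either strand, forms of the core bound by ETS factors, a family with many endothelial members. A stretch can belong to both forms where their ends meet, and either can overlap other motifs.
Flt1: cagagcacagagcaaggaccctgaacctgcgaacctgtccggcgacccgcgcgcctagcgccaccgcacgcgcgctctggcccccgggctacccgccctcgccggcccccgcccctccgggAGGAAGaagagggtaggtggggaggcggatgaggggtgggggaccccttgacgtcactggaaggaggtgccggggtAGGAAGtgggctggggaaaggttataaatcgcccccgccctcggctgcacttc
Kdr: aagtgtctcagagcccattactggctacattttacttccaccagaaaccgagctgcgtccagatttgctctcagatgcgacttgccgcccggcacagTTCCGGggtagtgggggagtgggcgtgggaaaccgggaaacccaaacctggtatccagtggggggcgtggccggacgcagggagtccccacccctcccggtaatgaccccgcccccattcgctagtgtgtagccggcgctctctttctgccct
Flt4: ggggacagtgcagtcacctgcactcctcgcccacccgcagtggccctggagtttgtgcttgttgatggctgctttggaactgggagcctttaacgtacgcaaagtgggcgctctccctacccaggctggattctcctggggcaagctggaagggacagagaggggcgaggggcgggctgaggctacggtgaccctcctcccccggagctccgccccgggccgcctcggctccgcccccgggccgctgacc
Tek: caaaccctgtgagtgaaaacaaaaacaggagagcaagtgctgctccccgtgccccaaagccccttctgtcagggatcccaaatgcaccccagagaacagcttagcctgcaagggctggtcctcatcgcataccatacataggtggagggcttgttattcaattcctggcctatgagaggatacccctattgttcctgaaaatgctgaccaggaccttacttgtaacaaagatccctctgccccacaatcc
Tie1: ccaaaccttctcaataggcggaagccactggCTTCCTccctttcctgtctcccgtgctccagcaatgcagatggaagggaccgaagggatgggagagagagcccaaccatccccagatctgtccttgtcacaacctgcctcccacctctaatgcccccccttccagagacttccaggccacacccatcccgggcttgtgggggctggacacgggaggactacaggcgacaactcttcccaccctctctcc
These letters occurred in the Flt1 promoter at 129 and 53 bases before the start, in the Kdr promoter at 153 bases and in the Tie1 promoter at 219 bases before it. They were not in the windows of Flt4 and Tek, nor in those of Vegfa, Vegfb and Vegfc. Of 32851 promoters of the same length, 38.2% held at least 1 match. The letters ACGTG or GCGTG on either strand, the core bound by hypoxia-inducible factors, occurred in 38.6% of those promoters and were found in the windows of Vegfb (2), Flt1 (1) and Kdr (2) and not in those of Vegfa, Vegfc, Flt4, Tek and Tie1.

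Flt1, at chr5:147562196-147725988, was as high in DC as in Neg. It stood at 11.1 and 10.6 FPKM in Neg and at 10.8 and 10.9 FPKM in DC, and the other 12 libraries ranged from 0.211 to 1.83 FPKM with a median of 0.525 FPKM. Neg and DC overlapped, and every other library lay below them. Neg differed from DC by -0.0030 on the log2 scale (SE 0.22, limma adjusted p = 0.997). Neg exceeded DCSch, the next in the order, by 2.26 (SE 0.22, limma adjusted p = 1.21e-05), and no pair of neighbours below DCSch differed beyond its spread. A value per gene does not tell the membrane form of FLT1 from the soluble one.

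Kdr, at chr5:75933270-75978428, had its highest level in Neg and a second, lower one in DC. It stood at 72.6 and 47.0 FPKM in Neg, 3.31 and 3.09 FPKM in DCSch, and 7.36 and 8.65 FPKM in DC. The 10 libraries of Pc, Epi, Fb, Mc and Sch lay between 1.14 and 3.39 FPKM. No library of Neg overlapped DC, and none of DC overlapped a lower fraction. Neighbours below DCSch did not differ beyond their spread.

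The other 3 receptors were also highest in Neg. Flt4, at chr11:49609679-49652739, stood at 24.0 and 12.0 FPKM in Neg, and no other library passed 1.33 FPKM. Tie1, at chr4:118471191-118489849, stood at 22.2 and 6.10 FPKM in Neg, and no other library passed 0.908 FPKM. Tek, at chr4:94739300-94874939, stood at 17.1 and 14.7 FPKM in Neg and at 2.55 and 3.57 FPKM in Fb, while the other 12 libraries had at most 1.12 FPKM. Tek in Fb was an intermediate level that overlapped no other fraction. Neg exceeded Fb by 2.06 for Tek (SE 0.24, limma adjusted p = 5.65e-05), and Fb exceeded DCSch by 1.19 (SE 0.24, limma adjusted p = 0.00560). For Flt4 and Tie1 no neighbours below Neg differed beyond their spread.

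The 2 Neg libraries were not alike in these receptors. Replicate 1 over replicate 2 was 3.64 for Tie1, 2.00 for Flt4, 1.55 for Kdr, 1.16 for Tek and 1.04 for Flt1. Over 20 blood endothelial genes the same ratio had a median of 1.41 and ranged from 0.803 to 2.87. The part of the share of endothelial cells in this spread was not tested.

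**Figure D2:**
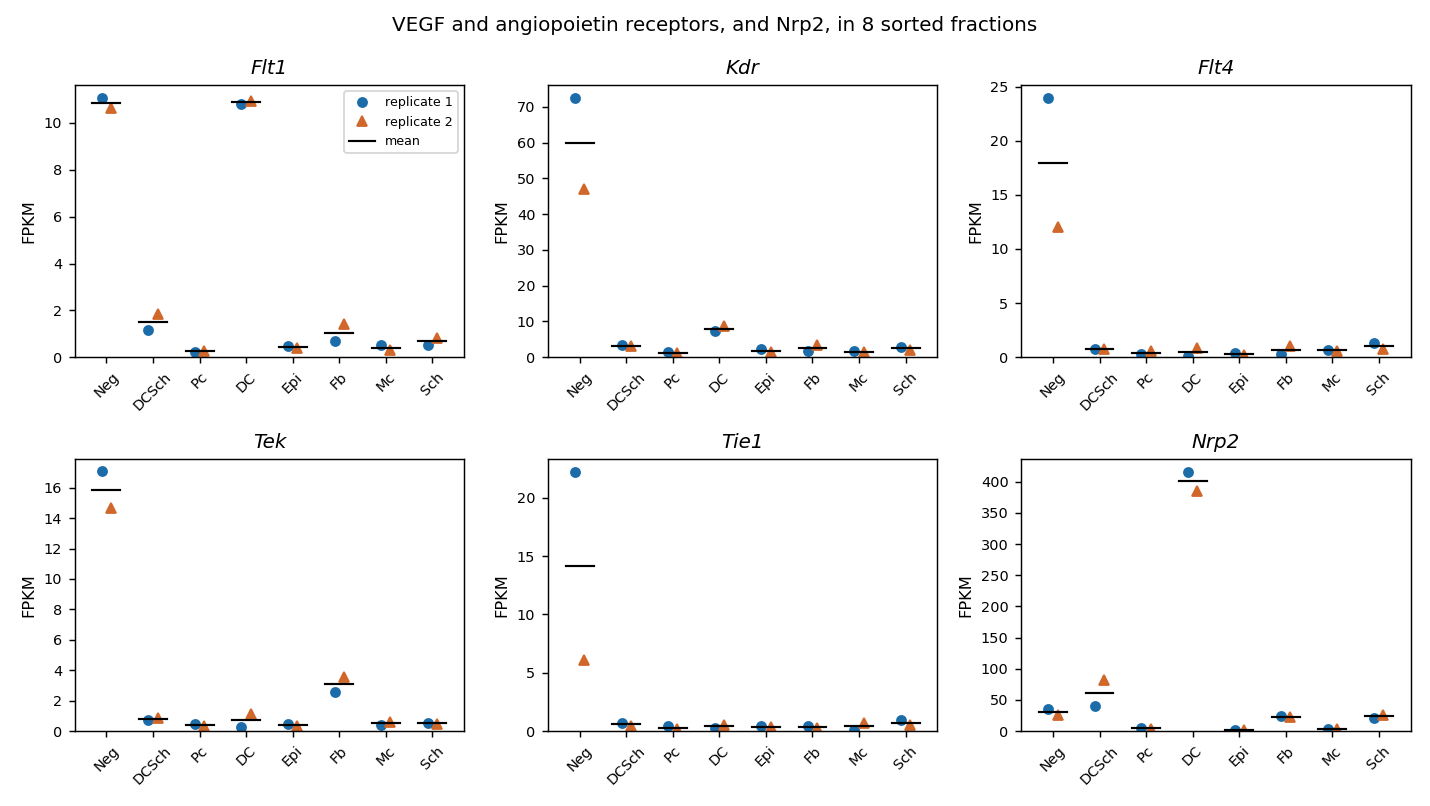
FPKM (linear axis from 0) of Flt1, Kdr, Flt4, Tek, Tie1 and the co-receptor Nrp2 in each library of the 8 fractions; circles are replicate 1, triangles replicate 2 and lines the mean of both. Flt1 is at the same height in Neg and DC, Kdr has a small second level in DC, Tek one in Fb, and Nrp2 reaches 416 and 386 FPKM in DC.

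Neg was set against the mean of the other 7 fractions to show which of the 10 genes differed in it from that mean. A gene higher in this comparison can still be as high in a single other fraction. In that comparison 12.6% of all tested genes were called. Of the 10 genes, 6 were higher in Neg, and Vegfa was lower. Kdr was 4.05 higher on the log2 scale (SE 0.21, limma adjusted p = 5.60e-08), Flt4 3.50 higher (SE 0.25), Tek 3.26 higher (SE 0.18) and Tie1 3.18 higher (SE 0.32). Flt1 was 2.43 higher (SE 0.17), although both DC libraries lay within the Neg range. Angpt1 was 1.27 higher (SE 0.20), although Fb overlapped Neg and averaged 2.38 FPKM against 2.33 FPKM in Neg. Vegfa was 1.09 lower (SE 0.14, limma adjusted p = 9.35e-05). The median over the 10 genes was 1.85, beside -0.031 over all tested genes. Markers of other cells moved with these receptors in Neg: 19 of 20 blood endothelial genes, 3 of 5 lymphatic genes, 7 of 10 vessel wall genes and 8 of 9 tested blood cell genes were called higher there. Tie1 among the 10 genes, and Plvap, Mmrn2, Sox17 and Ptprc among the markers, passed the filter through Neg alone, so their calls follow from it. Of the markers, Pecam1 stood at 71.4 and 56.2 FPKM in Neg, Cdh5 at 133 and 91.9 FPKM, Prox1 at 34.5 and 29.8 FPKM, Lyve1 at 6.86 and 16.2 FPKM, and the leukocyte gene Ptprc at 2.96 and 7.26 FPKM. Their part in the receptor levels was not tested.

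Neg against DC asked which vessel genes the condensate shares with the fraction that holds the endothelium. Of all tested genes 24.1% were called, and of the 10 genes 5 were higher in Neg and 1 was lower. Flt4 was 3.66 higher in Neg (SE 0.33, limma adjusted p = 5.16e-06), Tek 3.35 higher (SE 0.24), Tie1 3.21 higher (SE 0.42), Kdr 2.73 higher (SE 0.28) and Angpt1 1.48 higher (SE 0.26). The call of Tie1, which passed the filter through Neg alone, follows from the filter. Vegfa was 2.78 lower in Neg (SE 0.18, limma adjusted p = 4.16e-07), a 7.57-fold difference of the mean FPKM. Vegfb was 1.06 higher in Neg, which passed with the replicate number as a block (limma adjusted p = 0.000460) and not without it (0.163). The median over the 10 genes was 1.27, beside 0.013 over all tested genes.

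The mean level of Flt1 in DC was 100.2% of that in Neg, and that of Kdr 13.4%. Tek was at 4.45%, Tie1 at 2.73% and Flt4 at 2.61%. For 20 blood endothelial genes the same percentage had a median of 3.27% and ranged from 1.17% for Sox17 to 79.4% for Ramp2, with 14 of the 20 under 10%. Flt1 thus stood above all 20. The defining endothelial markers were near the level of other fractions in DC: Pecam1 stood at 0.347 and 2.58 FPKM in DC against 1.67 and 3.38 FPKM in Fb, and Cdh5 at 0.790 and 5.59 FPKM in DC against 2.70 and 4.83 FPKM in Fb. Both differed several-fold between the DC libraries, as did Emcn (0.349 and 3.76 FPKM) and Icam2 (0.484 and 2.74 FPKM) of the same list. Egfl7, Clec14a, Plvap, Cldn5 and Mmrn2 were also higher in DC replicate 2. Esam (1.30 and 1.31 FPKM) and Ecscr (4.96 and 6.32 FPKM) did not differ several-fold. Eng (9.54 and 6.65 FPKM) and Ramp2 (47.4 and 27.9 FPKM) were lower in replicate 2. Flt1 was 10.8 and 10.9 FPKM in the same libraries. The part of endothelial cells in the level of Flt1 in DC was not tested. Sox18, which the endothelium and the condensate share, stood at 49.7 and 13.9 FPKM in Neg and at 1313 and 346 FPKM in DC. Prox1, Lyve1 and Ptprc had at most 2.35, 0.857 and 0.0311 FPKM in DC. The pericyte genes Pdgfrb, which is also mesenchymal, and Rgs5 stood at 106 and 75.8 FPKM and at 3.88 and 5.63 FPKM in DC, against 66.0 and 45.7 FPKM and 4.09 and 13.3 FPKM in Fb. Hbb-y stood at 57.3 and 83.5 FPKM in DC against 28.6 and 157 FPKM in Fb.

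**Figure D3:**
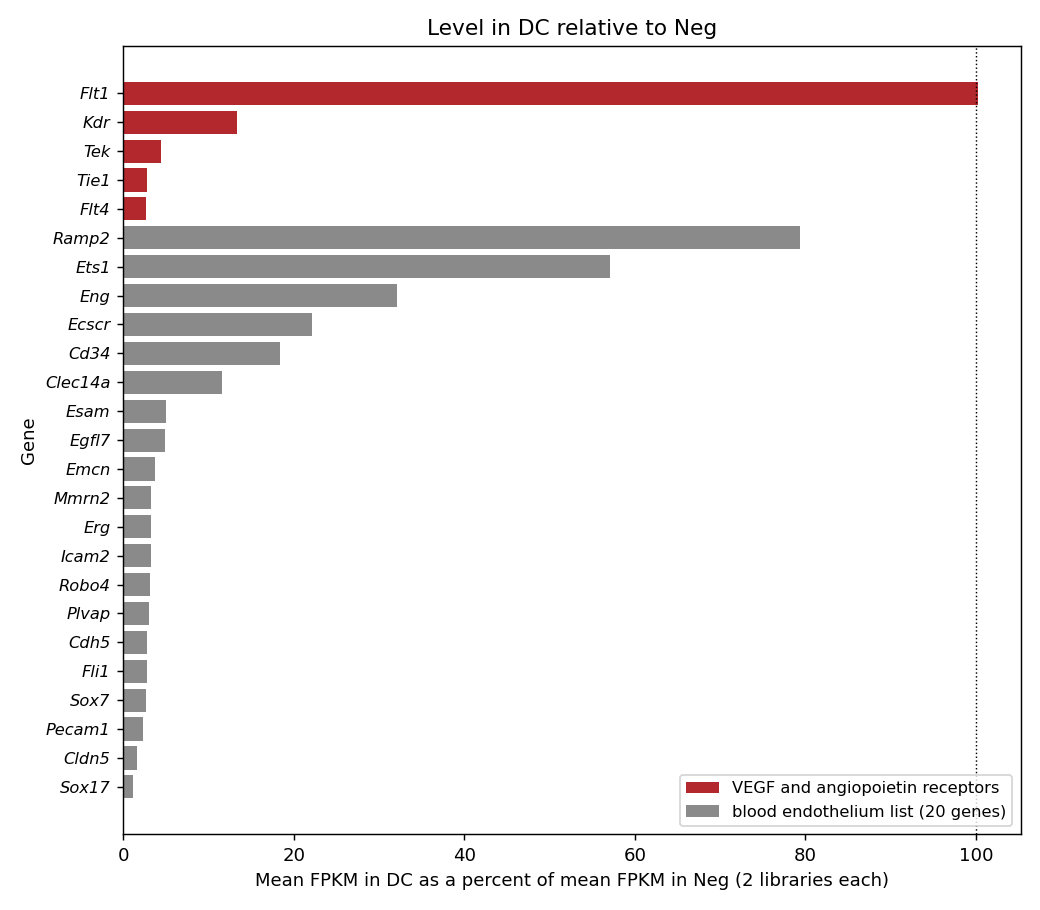
Mean FPKM in DC as a percent of mean FPKM in Neg (bars, linear axis from 0, 2 libraries each) for the 5 receptors and for 20 blood endothelial genes. Flt1 reaches 100.2% (dotted line at 100), above all 20 endothelial genes, whose median is 3.27%, and Kdr reaches 13.4%.

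DC against Fb asked what distinguishes condensate cells from the surrounding fibroblasts. Of all tested genes 15.3% were called, and of the 10 genes 3 were higher and 3 lower in DC. Flt1 was 2.56 higher on the log2 scale (SE 0.22, limma adjusted p = 7.94e-06), a 10.4-fold difference of the mean FPKM. Vegfa was 1.33 higher (SE 0.18, limma adjusted p = 0.000224), or 2.58-fold, and Kdr 1.34 higher (SE 0.28, limma adjusted p = 0.00424), or 3.05-fold. Vegfa and both of its receptors were therefore higher in the same fraction. On the lower side, Vegfc was 2.32 lower in DC (SE 0.31, limma adjusted p = 0.000209), Angpt1 1.43 lower (SE 0.26, limma adjusted p = 0.00193) and Tek 1.28 lower (SE 0.24, limma adjusted p = 0.00202). Vegfb, Flt4, Tie1 and Angpt2 did not pass. The median over the 10 genes was -0.52, beside -0.0033 over all tested genes. With only the 4 libraries compared in the fit, Kdr, Tek and Angpt1 lost their calls, with limma adjusted p = 0.0831, 0.0912 and 0.0756, while 1231 genes in place of 2172 were called in all. Without DC replicate 1 the difference of Tek was -0.93, and without Fb replicate 2 that of Angpt1 was -0.95, both under the size limit.

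No blood endothelial gene was called higher in DC than in Fb by limma, and none was higher at an unadjusted p under 0.05. However, Erg, Fli1, Cldn5, Robo4, Mmrn2, Clec14a, Sox7, Sox17 and Plvap averaged under 1 FPKM in DC. The size limit allowed no higher call for them, so its absence is no result for these genes. Erg, Fli1 and Cd34 were called lower. The 20 genes summed to 97.0 and 108 FPKM in DC against 170 and 202 FPKM in Fb, and Sox17 is listed at 0 in DC replicate 1 and in Fb replicate 1. Of 10 vessel wall genes, 4 were called lower in DC than in Fb (Kcnj8, Acta2, Abcc9 and Tagln) and none higher. All 6 Schwann markers were called higher in DC than in Fb. The part of either list in the differences of the 10 genes was not tested. In Sch, Flt1 had 0.535 and 0.816 FPKM and Kdr 2.92 and 2.06 FPKM.

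DC against Sch gave the same 3 genes higher and none lower, where 19.2% of all tested genes were called. Tek, Tie1 and Angpt1 averaged under 1 FPKM in Sch, so the size limit allowed no lower call for them. At an unadjusted p under 0.05, 1 of the 10 genes, Angpt2, was lower. Flt1 was 2.83 higher in DC (SE 0.22, limma adjusted p = 1.86e-06), Vegfa 2.26 higher (SE 0.18, limma adjusted p = 2.33e-06) and Kdr 1.38 higher (SE 0.28, limma adjusted p = 0.00274). Over the 10 genes the median was 0.037, beside -0.011 over all tested genes. This comparison shares the DC libraries with the one against Fb.

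DCSch, read as condensate and Schwann cells together, was set against DC. Of all tested genes 6.2% were called, and of the 10 genes 2 were lower in DCSch and none higher, with none higher at an unadjusted p under 0.05 either. Flt4, Tek, Tie1 and Angpt1 averaged under 1 FPKM in DCSch, so the size limit allowed no higher call for them. Flt1 was 2.26 lower in DCSch (SE 0.22, limma adjusted p = 0.000104), with 1.18 and 1.83 FPKM in DCSch against 10.8 and 10.9 FPKM in DC, a 7.23-fold difference of the means. Kdr was 1.10 lower (SE 0.28, limma adjusted p = 0.0314), but its call was lost when any 1 of the 4 libraries was left out, with differences between -1.20 and -0.99. Vegfa, at 40.2 and 46.8 FPKM in DCSch against 61.4 and 73.0 FPKM in DC, did not pass. Over the 10 genes the median was 0.14, beside 0 over all tested genes.

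Where DCSch lies between Sch (at 0) and DC (at 1) was computed per gene in FPKM, and the genes named here were chosen after their values were seen. Over the 964 genes called higher in DC than in Sch with at least 5 FPKM in DC, the median position was 0.489 and the quartiles were 0.321 and 0.659. Vegfa was at 0.561, with 0.563 and 0.560 for replicates 1 and 2, between the quartiles. Flt1 was at 0.0812, with 0.0628 and 0.0999 for replicates 1 and 2, and 34 of the 964 genes (3.53%) were at or below it. Kdr was at 0.129, with 0.0877 and 0.157 for replicates 1 and 2 and 68 genes at or below it. Nrp2 was at 0.0995, with 0.0494 and 0.155 for replicates 1 and 2. The condensate markers Sox2, Bmp4 and Foxd1 were at 0.360, 0.432 and 0.378. Figf was at 0.830. Sox18 was at 0.140, with 0.0983 and 0.298 for replicates 1 and 2, Unc5b at 0.205 and S1pr1 at 0.249. Flt1, Kdr, Nrp2, Sox18, Unc5b and S1pr1 thus lay below the lower quartile and Vegfa between the quartiles. The difference between genes was not tested, and the 6 Schwann markers summed to 565 and 635 FPKM in DCSch against 37.4 and 89.0 FPKM in DC.

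**Figure D4:**
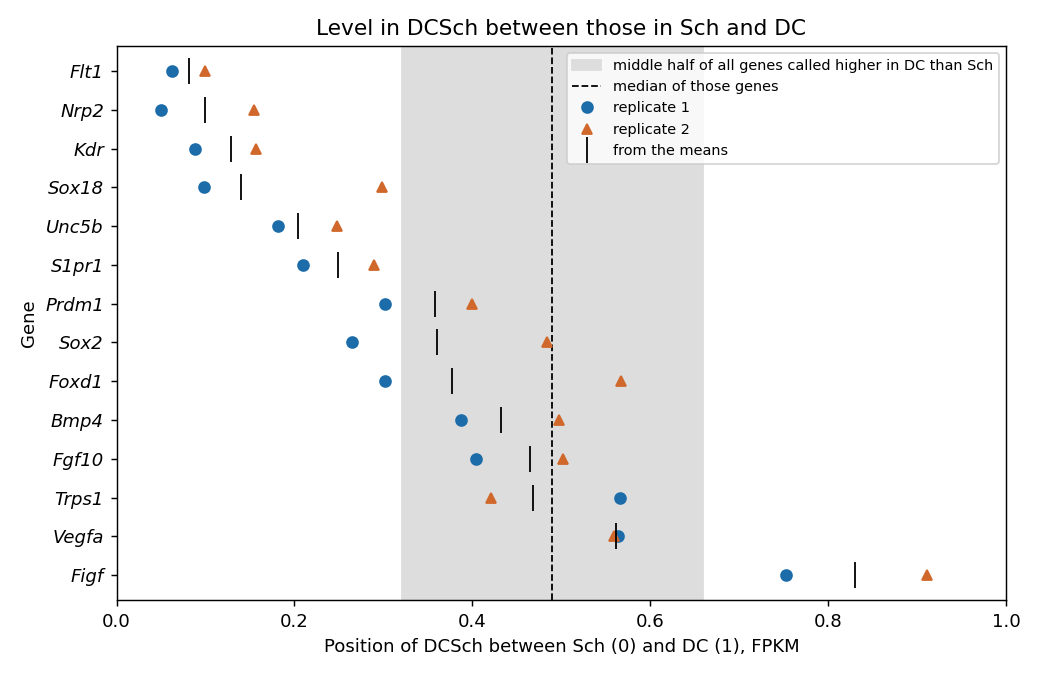
Position of the DCSch level between Sch (0) and DC (1) in FPKM for 14 genes; circles are replicate 1, triangles replicate 2 and vertical ticks the value from the means. The grey band spans the quartiles and the dashed line is the median of 964 genes called higher in DC than in Sch; Vegfa lies in the band, and Flt1, Nrp2, Kdr, Sox18, Unc5b and S1pr1 lie left of it.

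**Figure D5:**
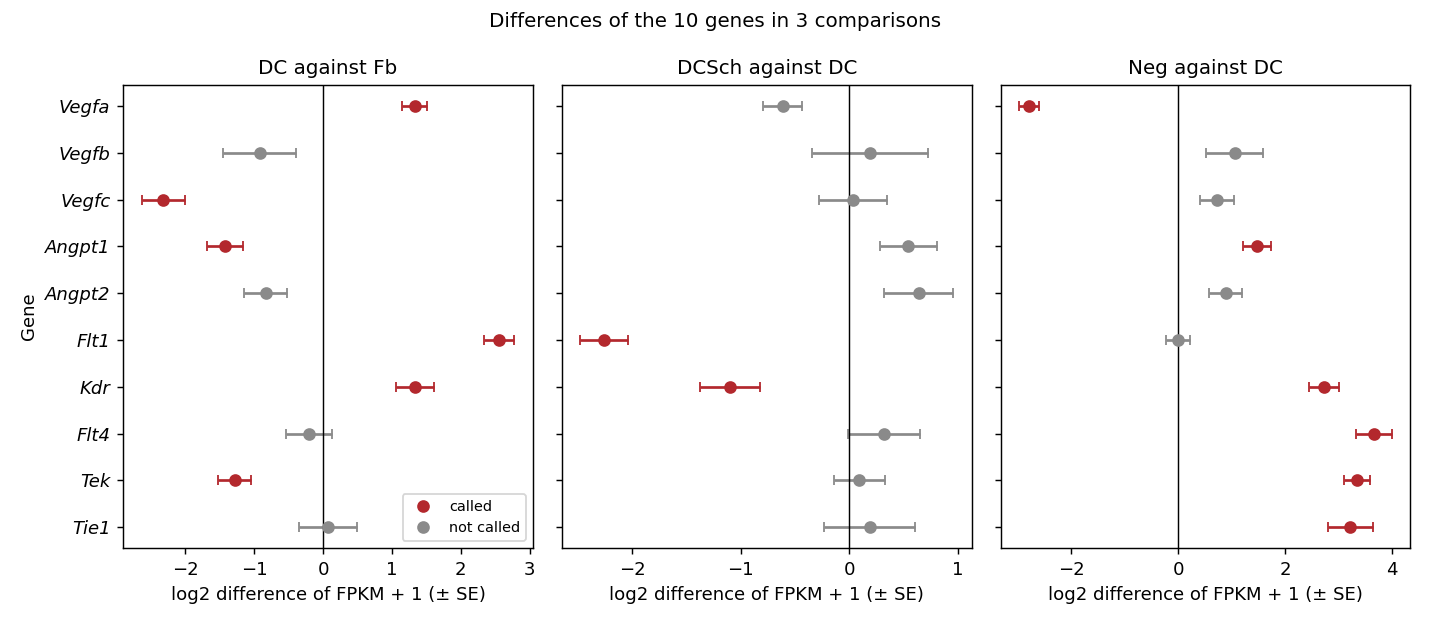
Differences of log2(FPKM + 1) with their SE for the 10 genes, for DC against Fb, DCSch against DC and Neg against DC; positive values are higher in the fraction named first and red points were called. Flt1 is 2.56 higher in DC than in Fb, 2.26 lower in DCSch than in DC and at -0.0030 between Neg and DC.

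In the epidermal fractions none of the 10 genes was called between Pc and Epi by limma, and none had an unadjusted p under 0.05, where 1.52% of all tested genes were called. Flt1, Flt4, Tek, Tie1 and Angpt1 stayed under 1 FPKM in both fractions, so the size limit allowed no call for them. Vegfa stood at 11.8 and 10.3 FPKM in Pc and at 10.3 and 11.9 FPKM in Epi, a difference of -0.0050 (SE 0.18). Vegfb stood at 24.9 and 16.1 FPKM in Pc and at 22.6 and 13.9 FPKM in Epi. The 5 receptors had at most 2.18 FPKM in these 4 libraries, a level reached by Kdr.

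Epi against Fb set the epidermis beside the dermis below it. Of all tested genes 24.5% were called, and of the 10 genes 4 were lower in Epi and none higher, with none higher at an unadjusted p under 0.05. Flt1, Flt4 and Tie1 averaged under 1 FPKM in Epi, so the size limit allowed no higher call for them. Vegfc was 3.02 lower in Epi on the log2 scale (SE 0.31, limma adjusted p = 1.32e-05), Angpt1 1.60 lower (SE 0.26), Tek 1.52 lower (SE 0.24) and Vegfa 1.16 lower (SE 0.18, limma adjusted p = 0.000337). Vegfa averaged 11.1 FPKM in Epi against 26.0 FPKM in Fb, a 2.34-fold difference. Over the 10 genes the median was -0.43 on the log2 scale.

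Pc against DC compared the fractions on either side of the forming follicle. Of all tested genes 27.5% were called, and 3 of the 10 were lower in Pc and none higher, with none higher at an unadjusted p under 0.05. Flt4, Tek, Tie1 and Angpt1 averaged under 1 FPKM in Pc, so the size limit allowed no higher call for them. Flt1 was 3.25 lower in Pc (SE 0.22, limma adjusted p = 4.36e-07), Vegfa 2.50 lower (SE 0.18, limma adjusted p = 7.66e-07) and Kdr 1.96 lower (SE 0.28, limma adjusted p = 0.000145). Vegfa was 6.07-fold lower in Pc by the mean FPKM. Vegfc was 0.91 lower (limma adjusted p = 0.0389), under the size limit. Across the 10 genes the median was -0.23, beside -0.010 over all tested genes.

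Mc against Sch compared the neural crest derivatives. Of all tested genes 11.8% were called, and 2 of the 10 were higher in Mc and none lower, with none lower at an unadjusted p under 0.05. Flt1, Tek, Tie1 and Angpt1 averaged under 1 FPKM in Sch, so the size limit allowed no lower call for them. Vegfc stood at 24.5 and 27.1 FPKM in Mc against 1.89 and 1.57 FPKM in Sch, a log2 difference of 3.30 (SE 0.31, limma adjusted p = 1.37e-05) and 14.9-fold in the means. Vegfb stood at 84.5 and 52.9 FPKM in Mc against 18.5 and 11.5 FPKM in Sch, a log2 difference of 2.12 (SE 0.53, limma adjusted p = 0.0176). The call for Vegfb was lost without Mc replicate 1 (1.79) and without Sch replicate 2 (1.80). Blood endothelial genes summed to 191 and 224 FPKM in Mc against 137 and 142 FPKM in Sch, of which Ets1 made 137 and 175 FPKM in Mc. The receptors were at most 2.92 FPKM in these 4 libraries, a level reached by Kdr. Of 5 lymphatic genes, Pdpn and Prox1 were called higher in Mc and Reln lower. Of 9 tested blood cell genes, Tyrobp and Fcer1g were called higher in Mc and none lower. The part of other cells in the Mc levels was not tested.

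For each of the 10 genes the 3 others most like it were found by the Pearson correlation of log2(FPKM + 1) over the 16 libraries, among 11189 genes with at least 5 FPKM in a fraction. They are a description, since libraries of a fraction are not independent points. Nearest to Vegfa were Hhip, Slc8a3 and Sphkap (0.981 for Hhip), and nearest to Flt1 were Ablim3, Maob and Hey1 (0.978 for Ablim3). Ablim3 averaged 9.09 FPKM in Neg, 5.34 FPKM in DC and 0.206 FPKM in Fb, and Hey1 47.0 FPKM in Neg, 36.1 FPKM in DC and 7.84 FPKM in Fb. Nearest to Kdr were Thsd1, Ttn and Pde2a, to Flt4 Mfng, Tnnc2 and Hfe2, to Tek Meox2 and She, and to Tie1 Ushbp1, Tmem233 and Zfp366, all with at least 0.966. Ttn averaged 35.4 FPKM in Neg and 1.42 FPKM in DC, and Tnnc2 8.98 and 0.204 FPKM. Because Neg was a mixture, genes of different cell types can share this pattern, and likeness does not place them in the same cells. Nearest to Vegfb were Htra2, Cuta and Clic1, to Vegfc Arhgap6, Rassf2 and Cd63, to Angpt1 Abcc9, Prkcb and Acta2, and to Angpt2 4930579G24Rik, Neil3 and Whsc1 (0.872 for the first). Abcc9 and Acta2 are genes of the vessel wall list.

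Of 18 listed partners of the pathway, 17 had a row of their own and 15 were tested. Nrp1 was not analysed here, since symbols that were absent or shared by several rows were left out. In DC against Fb, where 15.3% of all tested genes were called, the partner called higher was Nrp2, a co-receptor of VEGF-C and semaphorins. It stood at 416 and 386 FPKM in DC against 24.3 and 22.0 FPKM in Fb, 17.4-fold in the means and 4.06 on the log2 scale (SE 0.31, limma adjusted p = 3.26e-06). In DCSch it stood at 40.0 and 81.9 FPKM and in Neg at 35.4 and 26.0 FPKM. Another 6 partners were called lower in DC: Svep1, Adamts3 and Ccbe1, given above, Pgf, and the semaphorins Sema3a and Sema3c, secreted guidance factors that bind neuropilins. The median of the 15 was -0.24, beside -0.0033 over all tested genes. Over the 16 libraries Plcg1, the phospholipase downstream of KDR, ranged from 9.21 to 26.2 FPKM, Foxo1, a factor restrained by TEK signalling, from 2.94 to 70.3 FPKM, and the adaptor gene Shb from 0.288 to 3.52 FPKM. Sema3c ranged from 0.744 to 75.7 FPKM, Sema3a from 1.22 to 26.4 FPKM and Sema3e from 0.123 to 3.75 FPKM. Angpt4 and Sh2d2a had at most 0.285 and 0.105 FPKM and were not tested.

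In Neg against DC, 5 partners were called higher and 3 lower, where 24.1% of all tested genes were called. Plxnd1, an endothelial semaphorin receptor, averaged 39.7 FPKM in Neg and 3.89 FPKM in DC, and Ptprb, the phosphatase that dampens TEK signalling, stood at 9.65 and 9.11 FPKM in Neg against 0.0544 and 0.835 FPKM in DC. Ptprb passed the filter through Neg alone, so its call follows from it. Pgf, Svep1 and Dok2 were the other 3 higher ones. Nrp2, Figf and Ccbe1 were lower in Neg. The median of the 15 was 0.67. In Epi against Fb, where 24.5% of all tested genes were called, 9 of the 15 were lower and none higher. Adamts3, with the same limit, was among the 9, and 1 partner was higher at an unadjusted p under 0.05. Figf averaged 2.84 FPKM in Epi and 82.3 FPKM in Fb, a log2 difference of -4.46 (SE 0.28, limma adjusted p = 3.32e-07), and Svep1 had one of -4.55.

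Vegfa is induced by hypoxia in many tissues, so 18 genes of the hypoxia response were set beside it. In DC against Fb, where 15.3% of all tested genes were called, 3 were higher (Ankrd37, Ndrg1 and Pfkfb3), 1 was lower (Adm), and 14 did not pass. Adm is listed at 0 in both DC libraries. Ndrg1 averaged 41.5 FPKM in DC and 11.5 FPKM in Fb, and Ankrd37 15.9 FPKM in DC and 3.35 FPKM in Fb. In Neg against DC, 6 were called higher, among them Epas1, Egln3, the glucose transporter gene Slc2a1 and Adm, and 3 lower, while Vegfa was lower in Neg. Epas1, the endothelial hypoxia factor, averaged 26.4 FPKM in Neg and 0.773 FPKM in DC. In Pc against DC, 5 of the 18 were higher and 3 lower; Slc2a1 averaged 180 FPKM in Pc and 12.3 FPKM in DC. The median of the list was -0.23 in DC against Fb, beside -0.0033 over all tested genes.

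Among 12 genes that respond to VEGF or mark growing vessels, 2 were called higher in DC than in Fb and 1 lower. Of all tested genes 15.3% were called there. Unc5b, a netrin receptor of sprouting vessels, stood at 40.6 and 20.9 FPKM in DC against 9.52 and 4.42 FPKM in Fb, and S1pr1, a receptor for sphingosine phosphate, at 13.7 and 13.2 FPKM in DC against 4.99 and 6.88 FPKM in Fb. Apln was lower in DC, with 0.197 and 0.866 FPKM against 5.06 and 6.13 FPKM in Fb. In Neg against DC, with 24.1% of all tested genes called, 7 of the 12 were higher, among them Aplnr, Apln, Tal1 and Dll4. Unc5b was lower. Of the 7, Tal1, Dll4, Esm1, Notch4 and Nos3 passed the filter through Neg alone, so 5 of these calls follow from it. Dll4, a Notch ligand of tip cells, averaged 4.82 FPKM in Neg and 0.0712 FPKM in DC, and Apln, the ligand of the apelin receptor, stood at 19.5 and 15.3 FPKM in Neg. Flt1, Kdr, Unc5b and S1pr1 were thus called higher in DC than in Fb. Tie1, Dll4 and Tal1 stayed under 1 FPKM outside Neg, so the size limit allowed no call between DC and Fb. Flt4, at 0.106 and 0.834 FPKM in DC, could likewise not be called higher there. The absence of these 4 calls is therefore no result.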

How the data were processed

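The authors deposited 1 table of FPKM values with 23235 rows and a column for each of 16 libraries. TopHat2 2.0.3, Bowtie2 and Cufflinks 2.1.1 are named, with the build mm10, per the submitters' processing notes. No setting and no scaling between libraries is given in the sources used here. Per the labels' protocols, 6 ng of RNA was amplified to cDNA before sequencing, so low levels can carry amplification noise.

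Values were moved to log2(FPKM + 1), which understates the change of low genes. A gene that averaged under 1 FPKM in a fraction could not be called higher in it. Rows with at least 1 FPKM in at least 2 libraries, 14171 genes, entered a linear model (limma 3.58.1, R 4.3.3) with 1 mean per fraction over all libraries and a trended, robust spread. In each of 9 comparisons, Benjamini-Hochberg adjustment ran over all 14171 genes. Read counts were not used here, so the precision from depth is unknown.

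Replicate numbers paired the libraries: deviations from the fraction means correlated over 0.1 in 28 of 28 pairs of fractions (0.148 to 0.656). A fit with that block was an alternative, as were a pseudocount of 0.1, no filter, other scalings, a plain spread, only the compared libraries, and leaving out each library.

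All 10 genes are named; so are the 3 most correlated genes of each, of which 1 is not reported here, up to 4 called genes per list and comparison, and all listed partners with their range. The 10 genes and the lists were chosen with earlier results of these data known.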

Additional observations from a re-analysis of the deposited data

How the results depend on the processing

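The 90 differences (10 genes in 9 comparisons) were recomputed under the alternatives, 1069 values in all. Of these values 1045 kept their side of the threshold, 15 lost the call and 9 gained one. No difference called in the main fit or in an alternative changed sign between them. Some that were not called did change sign, such as Vegfb in DC against Sch, which ran from -1.01 to 0.263. Of the 33 calls, 28 held in every alternative run. The number of the 10 genes called in DCSch against DC was 1 in place of 2 with a pseudocount of 0.1, with no filter, with only the compared libraries, and without any 1 of the 4 libraries (1 to 1), since Kdr was lost; a fraction left with 1 library is assumed there to vary like the others. In Mc against Sch it was 1 in place of 2 with no filter and without Sch replicate 2 or Mc replicate 1 (1 at the lowest, 2 at the highest), since Vegfb was lost. In DC against Fb it was 3 in place of 6 with only the compared libraries. The cause of these losses was not tested. The replicate block added the call of Vegfb in Neg against DC (1.06, limma adjusted p = 0.000460) and changed no other call of the 10 genes in the 9 comparisons; between neighbours in an order of levels it also added Vegfb in Mc over Neg. Vegfc gained a call in Pc against DC with a pseudocount of 0.1 (-1.26), with libraries rescaled to the same total (-1.02) and without DC replicate 1 (-1.33), and in DC against Sch without DC replicate 1 (1.11) and in Neg against DC without DC replicate 2 (1.14). Angpt2 gained calls without DC replicate 2, as in Neg against DC (1.33). The number called over all genes moved by over 1.5 times in DC against Fb (2172, and 1231 with only the compared libraries), DCSch against DC (879 and 300) and Pc against Epi (216, with 31 at a pseudocount of 0.1, 368 with the block, and 43 to 73 without Pc replicate 2 or an Epi library). Rescaling to the same total moved the median of all genes by -0.20 in Epi against Fb and in Neg against DC, -0.19 in Neg against the mean of the others, -0.14 in Mc against Sch and -0.11 in Pc against DC, and by less than 0.1 in the other 4 comparisons; in Neg against DC it gave 1562 genes higher and 1936 lower in place of 1966 and 1448, in Neg against the mean of the others 961 and 868 in place of 1175 and 613, and in Epi against Fb 1124 and 2433 in place of 1483 and 1987. Values under about 1 FPKM, as for Angpt1 in most fractions, limit what can be told apart, and the depth of the libraries is not given.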
